A study of Mus musculus with 29 samples.

Results

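Whole-genome DNA methylation of mouse lung was described here for the 599 windows that were less methylated after ovalbumin (OVA) challenge whether or not the mother had been exposed to particulate matter. A window is a stretch of genome that holds 100 CpG cytosines counted over both strands, and its value is the mean methylation of those cytosines in percent (%DNAm). By the reference sequence, 568 of the 599 windows held exactly 50 CpG dinucleotides, which is 100 cytosines, and the others up to 82. The windows were selected from the 250325 windows of chromosomes 1 to 19 with a value in all 29 libraries, by requiring a mean Sham-OVA level at least 10 percentage points below the Sham mean and a mean PM-OVA level at least 10 points below the PM mean. They made up 0.239% of the complete autosomal windows and were annotated to 476 of 36004 genes. The OVA differences below therefore selected the windows, and they are given as a description without a test.

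The 29 libraries came from lungs of 13-week-old female Balb/c mice. Sham offspring (n = 7) and Sham-OVA offspring (n = 7) had dams that received intranasal saline, whereas PM offspring (n = 7) and PM-OVA offspring (n = 8) had dams that received intranasal PM2.5, before mating, through gestation and until weaning. The OVA groups were sensitised with intraperitoneal OVA in alum and then challenged with aerosolised OVA, which is the standard way to induce allergic airways disease (AAD), and the remaining animals received PBS by the labels. Litters are not given, so the spread within a group may include animals that share a mother. The tissue was a homogenate of lung taken after lung function testing, so each value averages every cell type in it, including leucocytes that enter the airways after challenge. A change in the share of a cell type and a change of methylation within a cell cannot be told apart in such samples, and no cell counts were used here.

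CpG methylation is copied at each cell division and differs between cell types. It is usually low at the active regulatory regions of the genes that give a cell its identity. Genes used by blood cells, such as those of integrins, cytoskeletal regulators and haematopoietic transcription factors, are typically methylated in epithelial, endothelial and mesenchymal cells and unmethylated over parts of their length in leucocytes. The OVA model brings eosinophils and lymphocytes into the lung as part of a type 2 response.

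Before the results, 3 points about the libraries need to be stated. For Sham replicate 1, 1224 of 1230 Y-chromosome windows carried a value, whereas each of the others had values in 29 to 46 of them, which is at odds with a female animal. Without it, 596 windows passed the same thresholds, and 585 of them were among the 599. PM-OVA replicates 7 and 8 carry library names of another style (Rel1 and Rel2), and without them 555 windows passed, of which 551 were among the 599. Sham-OVA replicate 7 stood above the other Sham-OVA libraries in most of the selected windows, as described below, and without it 672 windows passed, which included all 599.

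Sequence from the genes with the largest differences is shown first, because the level of a window is the mean over its CpGs. For the 6 windows with the largest mean difference that hold a 300-base stretch free of annotated untranslated sequence and of exons of non-coding transcripts of coding genes, the 300 bases richest in CpG are given 5′ to 3′ on the + strand of GRCm38, in lower case with each CpG in capitals. The stretches held 7 CpGs in Cytip, 15 in Bin2, 14 in Mir142hg, 9 in Ikzf1, 13 in Map3k14 and 8 in Nf1, each out of 50 CpG dinucleotides in the whole window. Those of Cytip, Ikzf1, Map3k14 and Nf1 were intronic, that of Bin2 contained 65 bp of coding exon, and that of Mir142hg contained 213 bp of non-coding exon and the miR-142 hairpin.
Cytip, chr2:58158403-58158702: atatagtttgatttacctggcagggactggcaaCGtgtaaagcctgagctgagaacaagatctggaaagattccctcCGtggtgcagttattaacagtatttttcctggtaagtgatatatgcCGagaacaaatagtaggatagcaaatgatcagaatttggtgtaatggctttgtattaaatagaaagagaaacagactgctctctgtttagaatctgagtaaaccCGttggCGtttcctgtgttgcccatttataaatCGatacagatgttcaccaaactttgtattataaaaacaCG
Bin2, chr15:100669178-100669477: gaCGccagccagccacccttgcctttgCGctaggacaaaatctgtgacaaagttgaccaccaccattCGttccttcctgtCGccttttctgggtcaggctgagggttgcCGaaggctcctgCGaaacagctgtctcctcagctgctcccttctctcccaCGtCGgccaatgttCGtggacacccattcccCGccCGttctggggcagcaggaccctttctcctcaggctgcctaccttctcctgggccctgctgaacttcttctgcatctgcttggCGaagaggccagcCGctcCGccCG
Mir142hg, chr11:87756837-87757136: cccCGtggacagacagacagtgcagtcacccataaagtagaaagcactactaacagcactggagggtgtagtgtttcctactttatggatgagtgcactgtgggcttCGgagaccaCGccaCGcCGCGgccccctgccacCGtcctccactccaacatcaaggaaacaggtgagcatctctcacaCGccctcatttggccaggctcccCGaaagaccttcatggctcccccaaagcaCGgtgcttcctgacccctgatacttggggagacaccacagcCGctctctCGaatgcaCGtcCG
Ikzf1, chr11:11691342-11691641: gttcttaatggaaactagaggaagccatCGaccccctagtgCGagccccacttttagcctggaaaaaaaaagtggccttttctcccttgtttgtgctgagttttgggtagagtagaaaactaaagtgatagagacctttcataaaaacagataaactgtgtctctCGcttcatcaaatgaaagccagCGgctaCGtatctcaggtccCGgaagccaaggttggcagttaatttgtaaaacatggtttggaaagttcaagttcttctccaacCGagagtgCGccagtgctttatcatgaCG
Map3k14, chr11:103264453-103264752: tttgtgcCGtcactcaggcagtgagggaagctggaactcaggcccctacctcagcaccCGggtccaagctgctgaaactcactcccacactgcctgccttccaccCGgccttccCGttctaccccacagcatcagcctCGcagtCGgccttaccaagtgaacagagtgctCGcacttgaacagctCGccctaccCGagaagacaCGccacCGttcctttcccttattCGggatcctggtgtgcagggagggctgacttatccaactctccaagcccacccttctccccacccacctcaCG
Nf1, chr11:79529348-79529647: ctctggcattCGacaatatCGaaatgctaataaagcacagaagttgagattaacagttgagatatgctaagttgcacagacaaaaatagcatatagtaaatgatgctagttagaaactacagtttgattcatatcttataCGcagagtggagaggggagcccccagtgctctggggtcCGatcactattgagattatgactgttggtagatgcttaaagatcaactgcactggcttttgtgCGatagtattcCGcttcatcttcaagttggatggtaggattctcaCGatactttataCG

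Of the 10 genes with the largest differences, Cytip, Bin2, Rhoh, Ikzf1 and Runx1 were on an immune gene list and the others on no list. Cytip, a scaffold protein that restrains integrin adhesion in lymphocytes, lay furthest from its controls in a window on chromosome 2 from 58156260 to 58160444, with 174 bp of coding and 389 bp of untranslated exon. Its level ranged from 57.7% to 68.9% in Sham (median 63.1%) and from 55.1% to 65.7% in PM (median 62.3%). It ranged from 26.2% to 42.9% in Sham-OVA (median 34.6%) and from 30.4% to 45.4% in PM-OVA (median 35.1%). Every OVA library was thus below every control library, with mean differences of -29.8 points in Sham and -24.8 points in PM.

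Bin2, which encodes a membrane-shaping protein of leucocytes, had its largest difference in a window on chromosome 15 from 100667744 to 100670140 that includes 587 bp upstream of a start of the gene. The levels in Sham were 59.4% to 75.1% (median 68.2%) against 34.3% to 49.9% in Sham-OVA (median 41.4%). In PM they were 62.2% to 76.7% (median 67.8%) against 28.9% to 48.1% in PM-OVA (median 43.6%). The groups did not overlap, and the mean differences were -26.2 and -25.8 points. Rhoh, a haematopoietic protein needed for T cell receptor signalling, was covered by exons along the whole of its window on chromosome 5 from 65863076 to 65866824. Its range was 65.3% to 71.95% in Sham and 36.2% to 47.1% in Sham-OVA. In PM its range was 56.8% to 70.7%, where replicate 1 alone lay below 65.5%, and in PM-OVA it was 38.2% to 45.9%. The mean differences were -25.96 and -24.2 points, again without overlap between the groups.

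Mir142hg, the host transcript of miR-142, a microRNA that is abundant throughout the haematopoietic lineage, was sampled by 2 windows and both were selected. The window on chromosome 11 from 87755394 to 87757156 held the hairpins of Mir142 and, on the opposite strand, Mir142b, and 1671 bp of it lay within 2000 bp upstream of an annotated start. The mature sequences are shown with the seed, bases 2 to 8, in capitals, to identify the RNAs made from this window; no 2 of them share a seed.
mmu-miR-142a-5p: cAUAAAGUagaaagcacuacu
mmu-miR-142a-3p: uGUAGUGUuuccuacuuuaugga
mmu-miR-142b: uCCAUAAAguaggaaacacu

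The levels in the miR-142 window were 49.9% to 65.9% in Sham (median 61.9%) and 52.5% to 65.5% in PM (median 60.3%). They were 19.9% to 50.002% in Sham-OVA (median 38.2%) and 27.3% to 37.9% in PM-OVA (median 34.4%). PM and PM-OVA did not overlap, whereas the highest Sham-OVA library, replicate 7, was level with the lowest Sham library, and the mean differences were -24.1 and -25.3 points. Ikzf1, which encodes the lymphoid transcription factor Ikaros, was represented by an intronic window on chromosome 11 from 11687730 to 11691868 whose Sham mean of 62.0% ± 1.65 (SD, n = 7) compared with 38.5% ± 5.76 (SD, n = 7) after OVA. In the PM arm the mean of 60.9% ± 3.02 (SD, n = 7) compared with 38.7% ± 4.02 (SD, n = 8) after OVA. Sham-OVA replicate 7 was at 50.6%, while the other 6 Sham-OVA libraries lay between 32.4% and 38.6%.

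The remaining genes among the 10 with the largest differences were Map3k14, Plekhh3, Nf1, Runx1 and Kifbp. Map3k14 encodes the kinase NIK of the non-canonical NF-kappaB pathway, and its window changed from 60.5% to 37.7% in the Sham arm and from 62.2% to 39.7% in the PM arm. Plekhh3 had the shortest of these windows, 681 bp of mostly exonic sequence, with differences of -21.1 and -21.7 points. The window annotated to Nf1, a gene for a Ras GTPase-activating protein, also covers Evi2 and Evi2a, small genes that lie within an intron of Nf1, and includes 285 bp upstream of them. Its differences were -20.8 and -21.1 points. Runx1 encodes a transcription factor required for the emergence of blood stem cells, and its window at the distal start of the gene averaged 57.5% ± 4.27 (SD, n = 7) for Sham against 35.0% ± 5.99 (SD, n = 7) for Sham-OVA. For PM it averaged 53.4% ± 5.66 (SD, n = 7), with 41.5% in replicate 1 and 51.97% or more in the others, and for PM-OVA 34.1% ± 6.33 (SD, n = 8). The highest PM-OVA library, at 44.5%, was above PM replicate 1, and the other PM libraries did not overlap with PM-OVA. The differences of Kifbp, which encodes a binding partner of kinesins, were -19.9 and -21.7 points in an intronic window.

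**Figure D1:**
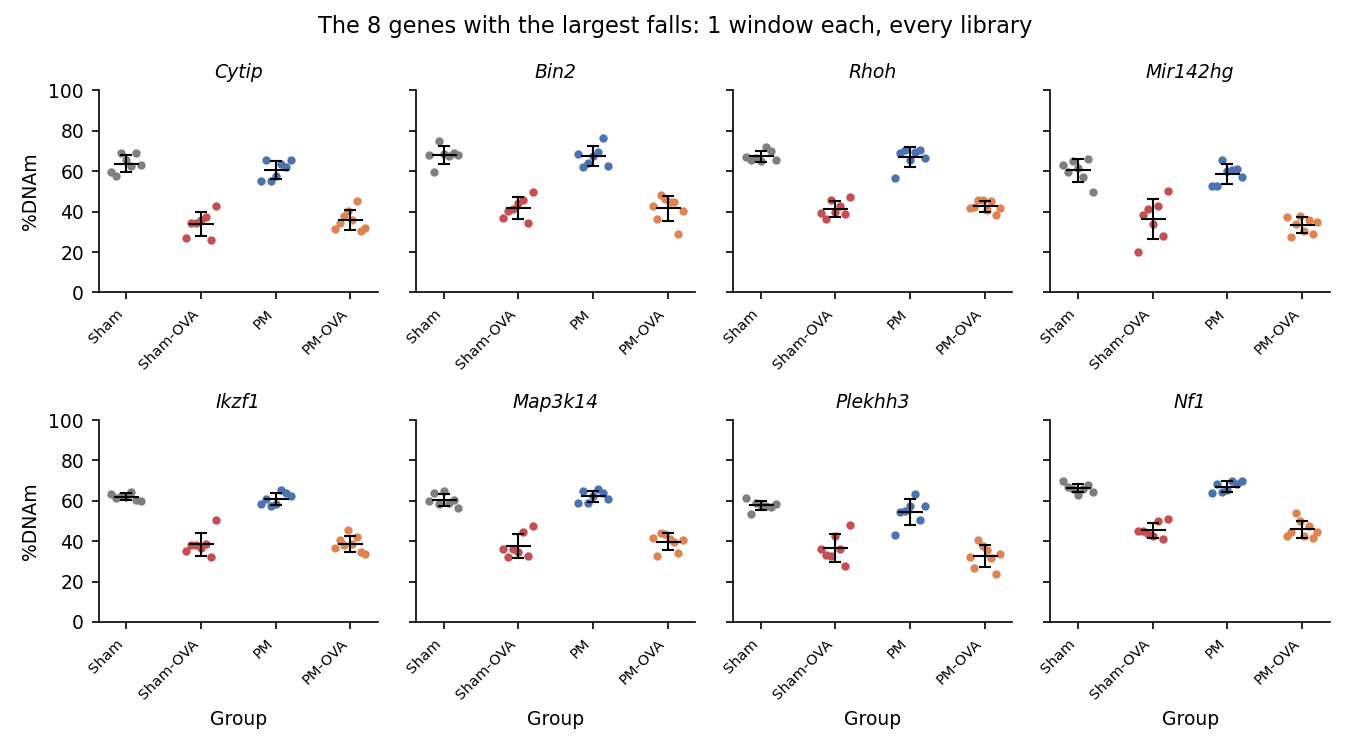
%DNAm (vertical axis, 0 to 100) in each library of the 4 groups (horizontal axis) for 1 window of each of the 8 genes with the largest mean OVA difference; points are libraries, black bars the group mean ± SD. In Cytip the Sham libraries sit at 57.7 to 68.9 and the Sham-OVA libraries at 26.2 to 42.9, and the separation is alike in the PM arm.

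Most of the selected windows were close to the threshold. Their median difference was -12.7 points in the Sham arm and -12.6 in the PM arm, and 25% of the windows had a mean difference of -14.5 points or beyond. Only 92 windows differed by 15 points or more in both arms and 10 by 20 points or more. At the edge, 88 windows lay within 0.5 points inside the threshold and 105 further complete autosomal windows lay within 0.5 points outside it. The closest inside were in Aff1 (-10.05 and -10.02 points), Grap (-10.24 and -10.02 points) and Cd79b (-10.02 and -10.86 points). The closest outside were in Lrrfip1 (-11.6 and -9.998 points), Zfp800 (-9.996 and -12.3 points) and Mtap (-11.4 and -9.98 points). A window in the list and a window just off it can therefore be alike in value.

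The levels of single libraries followed the groups. The median over the 599 windows was 67.6% to 69.8% in the Sham libraries and 66.1% to 70.02% in the PM libraries. It was 52.1% to 60.3% in Sham-OVA and 53.3% to 57.2% in PM-OVA, so that no OVA library reached the lowest control library. Over all complete autosomal windows the library medians lay between 76.3% and 78.2% without OVA and between 75.1% and 77.3% with OVA. Of the 599 windows, 571 had every Sham-OVA library below every Sham library, 569 had every PM-OVA library below every PM library, and 548 had both. The corresponding shares over all complete autosomal windows were 5.53%, 10.6% and 3.5%, but these counts come from the contrasts that selected the windows.

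The library medians over the selected windows varied most among the Sham-OVA libraries, through replicate 7. Without that library the median SD of a selected window within Sham-OVA was 2.56 points, against 2.72 points within PM-OVA. Sham-OVA replicate 7 had a median of 60.3% over the selected windows, against 52.1% to 56.1% in the other 6, and it was the highest Sham-OVA library in 471 of the 599 windows (78.6%). It nevertheless lay below all 7 Sham libraries in 576 windows (96.2%), and its median difference from the Sham mean was -8.04 points. Sham-OVA replicate 6 was the lowest of its group in 311 windows (51.9%). Among the controls, PM replicate 1 was the lowest PM library in 253 windows (42.2%). The 590 windows that gained 10 points or more in both arms, 0.236% of the complete autosomal windows, ranked these libraries the other way round. Losing windows were thus 50.4% of the losing and gaining windows together, and 35.8% (459 losing, 824 gaining) when each library was first centred to remove its shift over all windows. Sham-OVA replicate 7 had the lowest median of its group over the gaining windows (52.9%), Sham-OVA replicate 6 the highest (60.6%), and PM replicate 1 the highest of the PM libraries (47.3%).

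**Figure D2:**
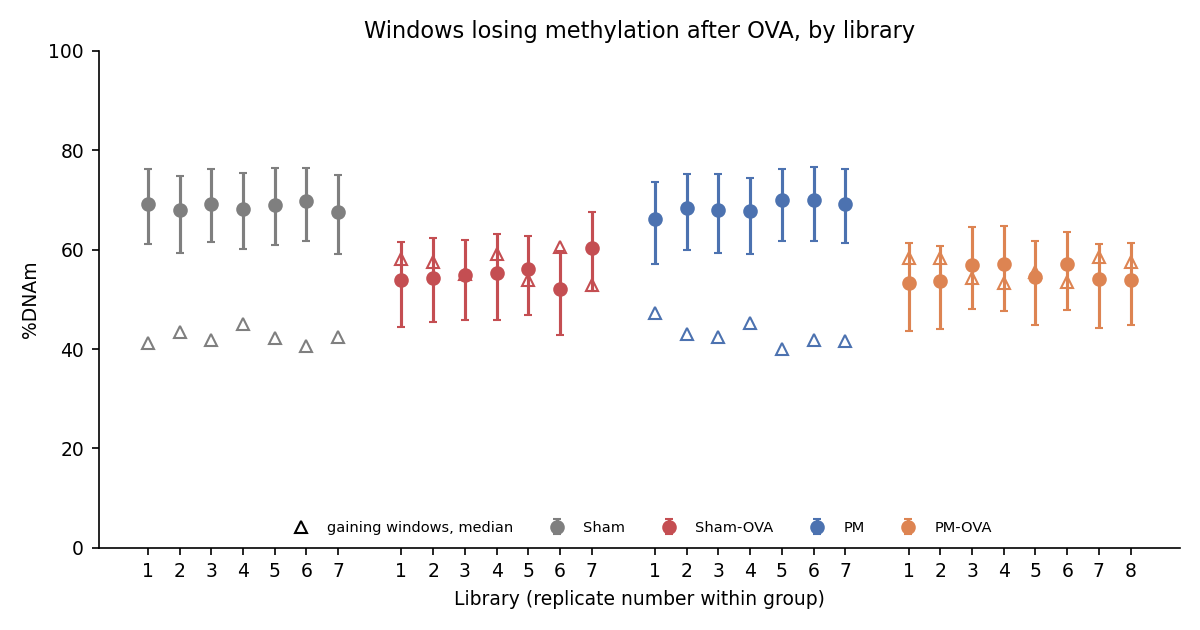
Median %DNAm (vertical axis) over the 599 losing windows in each of the 29 libraries (filled circles, bars span the middle 50% of windows) and over the 590 gaining windows (open triangles), by group and replicate number (horizontal axis). The losing windows sit at 66.1 to 70.02 in every control library and at 52.1 to 60.3 in every OVA library, with Sham-OVA replicate 7 the highest of these.

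The spread between libraries of a group was wider in the selected windows than in windows of like level, and wider after OVA than before. The pooled within-group SD had a median of 2.74 points over the 599 windows and 1.47 points over all complete autosomal windows. Among windows with a Sham level from 60% to 70%, it was 2.82 points in the 196 selected windows and 1.78 points in all 30381. The median SD within the control groups was 2.26 points and that within the OVA groups 3.06 points, with the OVA SD the larger in 485 of 599 windows (81.0%). Over all complete autosomal windows the OVA SD was the larger in 57.8%. The gaining windows varied more than the losing windows, with a median pooled SD of 3.68 points, 3.40 points in the controls and 3.83 points after OVA, and the OVA SD was the larger in 65.9% of them. The Sham-OVA SD had a median of 3.34 points with replicate 7 and 2.56 points without it, beside 2.07 points in Sham. The widest pooled SD was in the pseudogene Gm9762 (9.41 points), followed by the miR-142 window of Mir142hg (6.42 points) and Gm28342 (5.89 points). The narrowest were in B230118H07Rik, in a window with 1981 bp upstream of the recombinase gene Rag2, in Grap and in the other selected window of Bin2, each at 1.60 to 1.63 points.

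The selected windows started from an intermediate to high level. The mean Sham level had a median of 68.8%, with 50% of the windows between 60.7% and 75.8%, while the median over all complete autosomal windows was 76.9%. Of the 599, 386 (64.4%) had a Sham level from 60% to 80% and 112 (18.7%) from 40% to 60%. Fully methylated sequence was less frequent, since 75 windows (12.5%) had a Sham level of 80% or more, against 38.7% of all complete autosomal windows. A window cannot lose 10 points from a level under 10%, which limits the comparison at the low end, and no selected window had a Sham level under 20%. The lowest Sham levels were in Adgrg1 (30.5%), Sec11c (30.7%) and Nbea (32.3%), and the highest in Pole2 (91.1%), Zfp362 (90.1%) and Tiam1 (90.1%). The gaining windows lay lower, with a median Sham level of 42.3% and none at 80% or more.

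The differences by starting level are given as a description only, since each window had to differ by 10 points or more to be selected. The median Sham-OVA minus Sham difference was -12.2 points in the 26 windows with a Sham level from 30% to 40%, -13.3 points in the 71 from 50% to 60% and -11.7 points in the 75 from 80% upward. As a share of the control level, the median loss was 35.1% in the lowest of these classes and 14.2% in the highest, which follows from similar differences in points and higher control levels.

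Gene lists for leucocyte functions and for lung structural cells were compared by the share of their windows that were selected. The lists and their members were drawn up when earlier results of these data were known, and the shares are a description. The 10 immune lists together covered 3073 windows, of which 99 (3.22%) were selected, in 67 genes. They also held 28 gaining windows (0.911%) in 16 genes, against 0.236% of all windows. The 3 structural lists covered 775 windows, of which 2 (0.258%) were selected, close to the 0.239% of all windows. Nevertheless, 498 of the 599 windows were in genes on no list.

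Adhesion and migration genes had the highest share, with 15 of 272 windows (5.51%) in 13 of 29 measured genes. After Cytip, the largest differences were in Spn, which encodes the leucocyte surface mucin CD43 (-18.4 and -18.8 points), and in S1pr4, a sphingosine 1-phosphate receptor of lymphoid and myeloid cells (-19.9 and -16.3 points). The integrin genes Itgal, Itgb2 and Itga4 were also among the 13. The median mean difference over all 272 windows of the list was -0.41 points, and -0.69 points over all complete autosomal windows, so most windows of these genes differed far less than the selected ones.

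In the list of kinases, phosphatases and adaptors, 21 of 445 windows (4.72%) in 14 genes were selected and 5 (1.12%) were gaining windows, and the median over the list was -0.11 points with 51.9% of its windows lower, against 64.2% of all windows. Ptprc encodes the pan-leucocyte phosphatase CD45, and its window near the start of the gene averaged 69.3% ± 1.36 (SD, n = 7) for Sham against 50.2% ± 3.44 (SD, n = 7) for Sham-OVA. The PM mean was 68.1% ± 1.75 (SD, n = 7) against 51.6% ± 2.70 (SD, n = 8) for PM-OVA. The groups of each arm did not overlap. Dok2, an adaptor that dampens receptor tyrosine kinase signalling in blood cells, differed by -17.7 and -17.5 points, and Plcg2, the phospholipase downstream of the B cell receptor and Fc receptors, by -17.0 and -17.9 points. Another window of Plcg2 gained 10.3 and 10.7 points. Cytoskeletal and related signalling genes of blood cells contributed 25 of 609 windows (4.11%) in 14 genes, although the median over the list was +1.47 points and 33.0% of its windows were lower. Besides Bin2, these included Fmnl1, a formin of leucocytes (-20.97 and -20.4 points), and Wipf1, a partner of the Wiskott-Aldrich syndrome protein (-19.5 and -17.9 points).

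Myeloid genes contributed 6 of 129 windows (4.65%) and B cell genes 9 of 275 (3.27%). The myeloid windows were led by Ncf4 (-17.4 and -14.5 points), a subunit of the phagocyte NADPH oxidase, and Csf2rb (-12.6 and -11.2 points), the shared receptor chain for interleukin 3, interleukin 5 and GM-CSF. Ncf4 also held the only gaining window of the myeloid list, 4780 bp away, at +14.6 and +13.0 points. The B cell windows were led by Ly86 (-15.3 and -15.6 points), Blnk (-13.8 and -13.2 points), which links the B cell receptor to its downstream enzymes, and the kinase gene Blk (-13.1 and -13.5 points). Haematopoietic transcription factors had 16 losing windows of 762 (2.1%) in 8 genes and nearly as many gaining windows, 14 (1.84%) in 5 genes. The largest loss after Ikzf1 and Runx1 was in Bach2, a repressor of B and T cell differentiation (-16.5 and -17.6 points).

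Differences between lists were not tested, and each share stands beside 0.239% of all windows. T cell receptor signalling had 4 of 380 windows (1.05%), in Rhoh, Lat (-14.4 and -13.6 points), Fyb (-13.2 and -11.9 points) and Cd2. The eosinophil list had 1 of 55 windows (1.82%), an intronic window of the adenosine receptor gene Adora3, which averaged 40.8% ± 2.30 (SD, n = 7) for Sham against 26.5% ± 2.68 (SD, n = 7) for Sham-OVA. The PM mean was 39.4% ± 2.73 (SD, n = 7) against 25.2% ± 2.14 (SD, n = 8) for PM-OVA, and neither arm overlapped. Type 2 cytokines and receptors had 2 of 107 windows (1.87%), in Il10 (-13.3 and -10.9 points) and in Rad50 (-10.7 and -11.7 points), the gene that hosts the locus control region of the neighbouring Th2 cytokine genes. This list also held 1 gaining window (0.935%, against 0.236% of all windows), in Ptgdr2. No window of the cytotoxic and NK cell list was selected, out of 53.

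Of the structural lists, the endothelial list had 1 of 344 windows and the epithelial list 1 of 213, while the smooth muscle and fibroblast list had none of 218. The endothelial window was in Pecam1, a gene that leucocytes and platelets also express. It also covers the start of Milr1, a receptor gene of mast cells, and differed by -18.0 and -15.9 points. The epithelial window was in Rtkn2, at -10.7 and -10.9 points. Endothelial genes held 5 gaining windows (1.45%, against 0.236% of all windows), including another window of Pecam1 (+12.5 and +11.6 points).

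**Figure D3:**
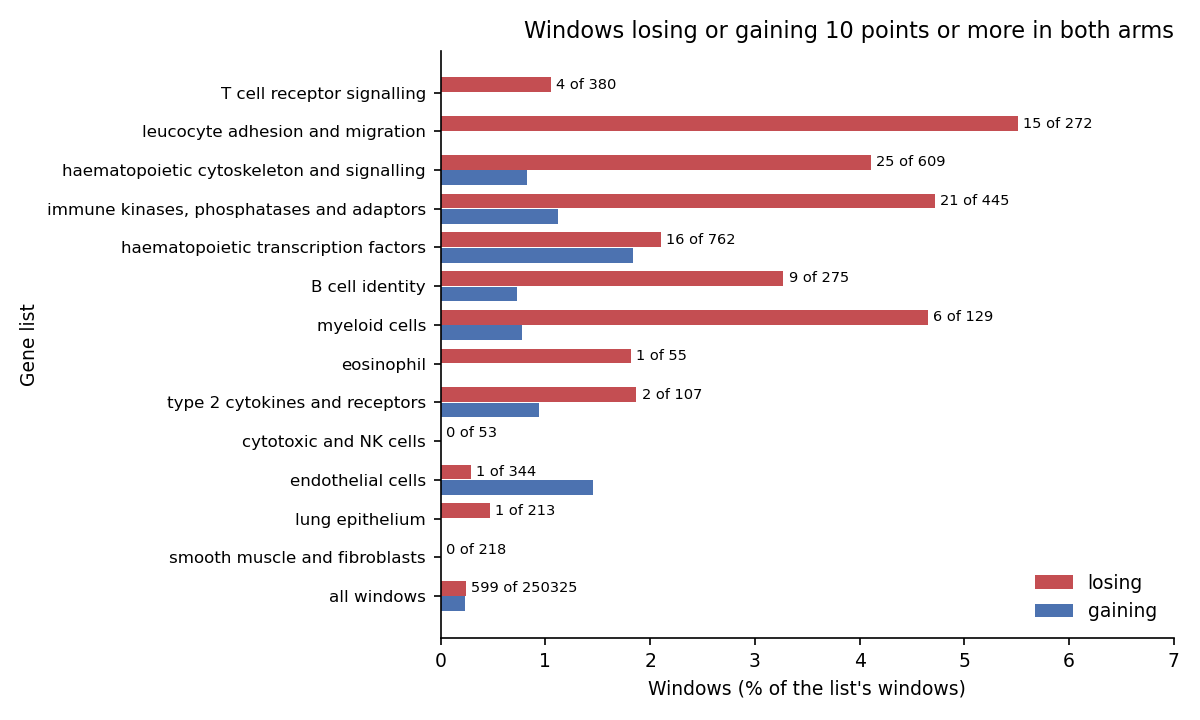
Percentage of the windows of each gene list (horizontal axis) that lost (red) or gained (blue) 10 points or more after OVA in both arms, with the number of losing windows of all windows beside each bar; the lowest bars are for all complete autosomal windows. Adhesion genes reach 5.51% and myeloid genes 4.65% losing, against 0.239% of all windows.

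Classes read from gene names were described in the same way. Genes named Cd followed by a number had 14 of 493 windows selected (2.84%), led by Cd200r1, an inhibitory receptor of myeloid cells (-19.8 and -16.7 points). Symbols that begin with Il and a number had 8 of 451 (1.77%), led by Il17ra (-16.9 and -13.6 points). Genes whose symbols begin with Mir had 5 of 349 (1.43%), in Mir142hg, Mir155hg and Mirt1. Hox genes had 3 of 163 (1.84%) and integrins 4 of 512 (0.781%). Solute carriers had 3 of 4113 (0.0729%) and the zinc finger genes named Zfp 3 of 2789 (0.108%). Olfactory and vomeronasal receptors had none of 2531, collagens none of 1005, immunoglobulin segments none of 282 and T cell receptor segments none of 132. Transcripts without a proper name, called Gm or Rik, had 60 of 44460 (0.135%).

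MicroRNA hairpins lay within 4 of the selected windows (0.668%) and within 3 of the gaining windows (0.508%), against 0.311% of all complete autosomal windows. Besides the miR-142 window, these were a window of Vmp1 with Mir21a, a window of Mir155hg with Mir155 and a window of Fxyd5 with Mir7050. The Mir21a window, singled out after its values were seen, was at 53.3% in Sham and differed by -17.9 points in both arms. The Mir155 window differed by -10.2 and -11.7 points, and its neighbour upstream, which was also selected, by -11.6 and -10.53 points. Mir155 and Mir21a are induced in activated lymphocytes and macrophages.

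The selected windows were denser in CpG and nearer to protein-coding gene starts than the average window. They held a median of 1.40 CpG per 100 bp and 47.6% G+C, against 1.07 and 44.5% in all complete autosomal windows, and their median length was 3580 bp against 4714 bp. The gaining windows were denser still, at 1.89 CpG per 100 bp. An exon was overlapped by 390 windows (65.1%), close to the 64.2% of all windows. Promoters, taken as the 2000 bp upstream of an annotated gene start, were overlapped by 167 (27.9%), against 22.8% of all windows and 19.3% of gaining windows. A start of a protein-coding gene lay in 80 (13.4%), against 7.72% of all windows and 6.27% of gaining windows. The nearest start of a protein-coding gene was 5 kb or less from the window centre for 202 selected windows (33.7%), for 182 gaining windows (30.8%) and for 19.4% of all windows. In genes of 20 kb or more, 33.1% of the 438 selected windows had their centre in the first 20% of the gene's length and 11.6% in the last 20%, whereas all windows divided into 23.1% and 20.2% and gaining windows into 23.3% and 19.8%.

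Short motifs of transcription factors were counted in the windows on both strands, as a description of the letters only. The motif GAGGAAGT, of the kind bound by the myeloid and B cell factor PU.1, occurred 0.126 times per kb in the selected windows, 0.054 times in gaining windows and 0.0623 times in all windows. The motif TGTGGTT of RUNX factors occurred 0.337, 0.209 and 0.254 times per kb, and the motif CCGGAAGT of other ETS factors 0.0159, 0.0157 and 0.00767 times per kb. The PU.1 and ETS motifs end in the same letters and differ in the first ones, so 1 site cannot be counted for both on a strand. For the motif TGTTTAC of forkhead factors the density was 0.122 per kb in selected windows and 0.157 in all windows, and for TGANTCA of AP-1 it was 0.362 and 0.316. The remaining motifs had densities of 0.176 and 0.18 (interferon regulatory factors), 0.14 and 0.15 (the motif AGATAAG of the GATA family) and 0.153 and 0.151 (the motif CACTTGA of Nkx2-1). Of the 300-base RefSeq promoters of GRCm38 (250 bases before to 50 after a gene start), 114 lay wholly within selected windows and 12 of these (10.5%) held the PU.1 motif, against 3.41% of 19875 promoters in all complete autosomal windows. The RUNX motif was in 18 of the 114 (15.8%) and in 5.92% of all. The ETS motif, denser in the selected windows as a whole, was in 2 of the 114 (1.75%) and in 3.27% of all promoters, and the forkhead motif in 1 (0.877%) and in 3.84%. The other motifs were in 7.02% and 8.88% (AP-1), 6.14% and 3.85% (interferon regulatory factors), 6.14% and 3.37% (GATA) and 2.63% and 3.29% (Nkx2-1). The window sets differ in base composition, which was not adjusted for.

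The windows were scattered over many genes but locally clustered. Of the 476 genes, 390 had 1 selected window, 63 had 2, 16 had 3, 3 had 4, 2 had 5, 1 had 6 and 1 had 7. A member gene had a median of 12 complete windows, and the selected windows were a median of 9.09% of them. Adjacent windows less than 5 kb apart formed 527 runs, of which 467 were single windows, 51 were pairs, 7 had 3 windows, 1 had 4 and 1 had 5. In all, 132 windows (22.0%) touched or neighboured another selected window, and 168 of the 590 gaining windows (28.5%) neighboured another gaining window. Chromosome 11 held the largest number, 63 windows or 0.405% of its windows, and chromosome 9 the smallest share, 19 windows or 0.135%.

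The longest run lay in Lcp1, which encodes L-plastin, an actin-bundling protein of leucocytes. Its 5 windows covered 19727 bp of chromosome 14 from 75177448 to 75197174. The Sham levels along the run were 36.1%, 56.7%, 74.6%, 74.0% and 75.8%, and the mean differences of the 2 arms ranged from -11.7 to -18.3 points. Of the other 17 windows of Lcp1, 7 were lower and their median difference was +0.47 points, and the run lay in the middle of the gene. The next run, of 4 windows, was in Tbx3os1, an antisense transcript beside the developmental factor gene Tbx3. These windows started from 36.6% to 43.9% in Sham and were spread over 11380 bp.

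Fnbp1, a gene for a membrane-bending protein that links to actin, had 6 selected windows at 4 separate places within 82235 bp, with mean differences of -10.8 to -18.3 points, together with 30 unselected windows of median -0.51 points. Galnt2l had the largest number of windows, 7, but its annotation spans 1420 complete windows and overlaps other genes. The overlapped genes at the selected windows were Cbfa2t3, a co-repressor of blood progenitors, Cyba, a subunit of the phagocyte NADPH oxidase, Gse1 and Crispld2, and the strongest 3 windows formed a run around the start of Cbfa2t3 with mean differences of -14.9 to -19.8 points. Some of the 5 windows of Ubac2 cover Gpr18 and Gpr183, G protein-coupled receptor genes of lymphocytes that lie within it, and all 5 differed by -14.9 to -16.2 points. The 4 windows of Tiam1, an activator of Rac, were 2155 to 2858 bp long, lay apart over 289298 bp and started from Sham levels of 70.7% to 90.1%.

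**Figure D4:**
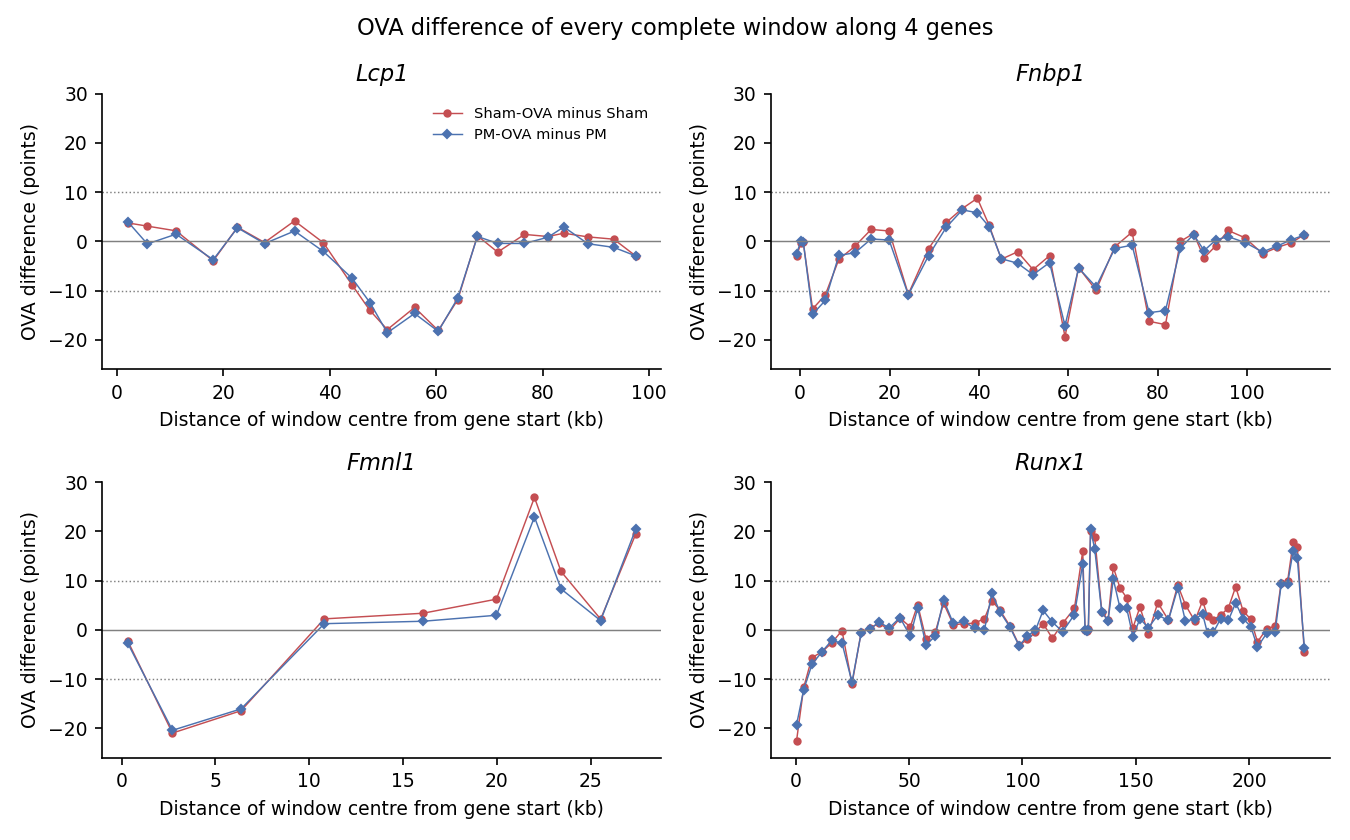
OVA difference in points (vertical axis) of every complete window along Lcp1, Fnbp1, Fmnl1 and Runx1, plotted by the distance of its centre from the gene start in kb (horizontal axis), in the Sham arm (red) and the PM arm (blue); dotted lines mark 10 points. In Lcp1 a run of 5 windows lies below -10 points in both arms, and Fmnl1 and Runx1 pass from loss near the start to gain further in.

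Loss and gain met within 33 genes, which is 6.93% of the 476 losing genes and 7.86% of the 420 gaining genes. In 32 of the 33 the strongest losing window had a higher Sham level than the strongest gaining window, with medians of 66.1% and 41.1%. All losing and all gaining windows differed likewise, with medians of 68.8% and 42.3%, so this is not particular to these genes. The distance between them was 2967 bp to 465979 bp (median 31456 bp). The losing window overlapped a promoter in 14 genes and the gaining window in 7, beside 27.9% of all losing and 19.3% of all gaining windows. In Runx1 there were 3 losing windows, all within 27317 bp at the distal start, and 6 gaining windows. The strongest gaining window of Runx1 was on chromosome 16 from 92695534 to 92696712, wholly exonic, at 14.9% in Sham, and differed by +20.05 and +20.4 points. In Fmnl1, the windows from 103171784 to 103179014 near the start differed by up to -20.97 points in Sham. The partly exonic Fmnl1 window from 103192627 to 103193602 was at 23.0% in Sham and differed by +26.9 and +22.9 points. Spi1, which encodes PU.1, lost methylation in a window from 91096853 to 91099453 on chromosome 2 (-15.8 and -16.8 points) and gained it in one from 91113404 to 91115447 (+13.9 and +13.5 points).

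The surroundings of the selected windows shared the direction over a short distance. Of the complete autosomal windows that touched a selected window without being selected, 474 in number, 80.8% were lower on the mean of both arms, with a median of -2.61 points. Among the 677 windows less than 2.5 kb away 72.8% were lower (median -1.52 points), and among the 633 at 2.5 to 5 kb 62.9% (median -0.62 points). Among the 1053 at 5 to 10 kb 58.9% were lower (median -0.42 points) and among the 4249 at 25 to 50 kb 53.0% (median -0.09 points). Windows further than 250 kb from any selected window had a median of -0.77 points, and 65.6% of them were lower. Loss was thus steepest beside the selected windows, and windows 2.5 to 250 kb away differed less than the distant background. These windows were measured in the libraries that made the selection and are not independent of it. Of the other 11166 windows of the 476 genes, 58.2% were lower, compared with 64.4% of the windows of other genes.

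**Figure D5:**
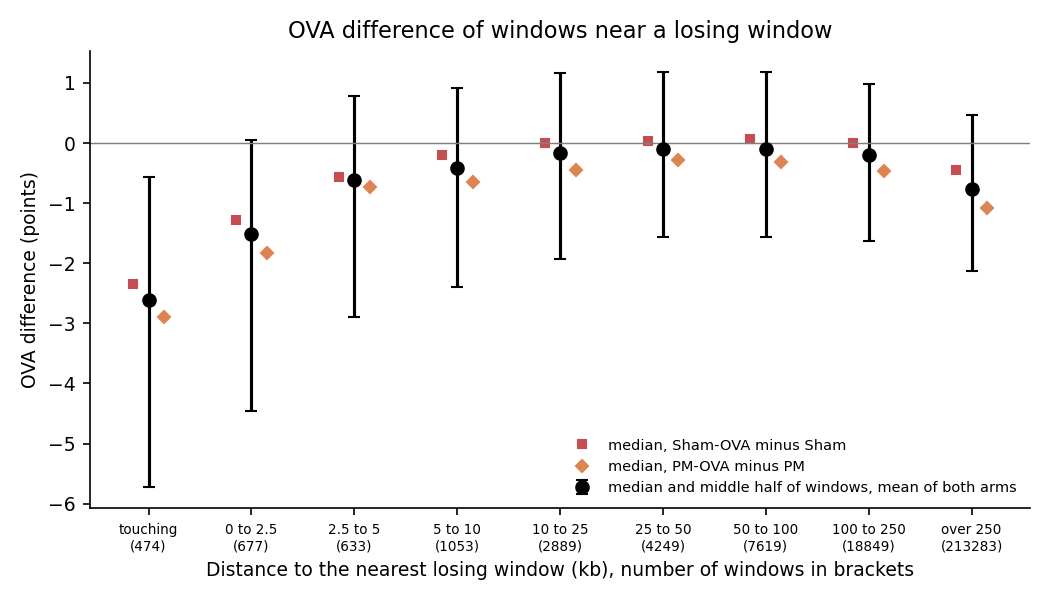
OVA difference in points (vertical axis) of unselected windows by their distance in kb to the nearest losing window (horizontal axis, number of windows in brackets); black circles and bars are the median and the middle 50% of windows for the mean of both arms, squares and diamonds the medians of the Sham and PM arms. The median goes from -2.61 points for touching windows to -0.09 points at 25 to 50 kb and is -0.77 points beyond 250 kb.

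Whether maternal PM2.5 altered these windows was tested with limma across all 259167 windows with at least 3 values per group. The rule did not compare PM with Sham, but the means of all 4 groups entered it, so the shares of the 599 windows below are not independent of the selection and nothing is read from their being lower than those of all windows. Without OVA, 0 of the 599 windows differed between PM and Sham at an adjusted p below 0.05, as was the case for 0% of all windows. At an unadjusted p below 0.05, 11 of the 599 (1.84%) did, against 5.79% of all windows. The differences PM minus Sham ranged from -5.27 to 2.69 points, with a median of -0.25, and 598 were under 5 points in size. The smallest p was in Cd82, which encodes a tetraspanin, with a Sham mean of 68.8% ± 2.28 (SD, n = 7) against a PM mean of 64.3% ± 1.76 (SD, n = 7), at a limma adjusted p = 0.812. On the log2 ratio scale the difference was -0.28 ± 0.09 (SE).

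With OVA, 0 of the 599 windows differed between PM-OVA and Sham-OVA at an adjusted p below 0.05, with 0% of all windows, and 9 (1.5%) did at an unadjusted p below 0.05, with 5.96% of all windows. The differences ranged from -3.95 to 4.26 points with a median of -0.15. The smallest p was in Nol9, a gene for an RNA kinase of ribosome production, at 77.4% ± 2.73 (SD, n = 7) in Sham-OVA and 73.5% ± 3.79 (SD, n = 8) in PM-OVA (limma adjusted p = 0.816). The interaction, which asks whether the OVA difference depended on maternal exposure, likewise gave 0 windows at an adjusted p below 0.05, with 0% of all windows, and 5 (0.835%) at an unadjusted p below 0.05, with 7.4% of all windows. Its smallest p was again in Nol9, with an OVA difference of -10.05 points in the Sham arm against -14.9 points in the PM arm (limma adjusted p = 0.605). The difference between the 2 OVA differences ranged from -4.89 to 6.10 points over the 599 windows, with a median of 0.05. This test uses the libraries of the selection, which kept only windows that differed in both arms, so it was not free to find windows that responded in a single arm. Adjusted p values above the threshold do not show that the groups were alike.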

How the data were processed

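Enzymatic methyl-seq libraries of 29 mouse lungs were analysed. The authors trimmed reads with Trim Galore, aligned them to GRCm38 and called methylation with DRAGEN, and averaged %DNAm in SeqMonk over windows of 100 CpG cytosines with at least 10 informative, keeping windows that overlap a gene. The deposited values are percent methylation per window and library, without read coverage. The authors report coverage per replicate but not per window, so the depth of a window is unknown and no counting interval is given. Libraries were grouped by their labels. The members, the gene lists and the motifs were chosen with earlier results of these data known.

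Group means were compared in Python 3.11.15 with pandas 2.3.3. Maternal contrasts were tested with limma 3.58.1 (R 4.3.3) on log2((percent + 1)/(101 - percent)) over all libraries and 259167 windows, with Benjamini-Hochberg adjustment. On simulated data with independent noise and a shift of 1.2 log2 units in PM-OVA, 200 of 200 changed windows were recovered for PM with OVA. There were 11 false calls. Smaller shifts were not simulated, so this gives no measure of recovery for differences of the size seen between PM and Sham. Exons and gene starts came from GENCODE M21 and sequences from the RefSeq copy of GRCm38. Windows were named by rank: the 10 largest mean differences (1 window per gene), the 6 genes with most windows, extremes of Sham level, spread and distance from the threshold (3 each), up to 3 genes per list, the leading window of each name class and of microRNA and promoter windows, and the smallest p of each contrast. Alternatives were group medians, thresholds of 8 and 12 points, centred libraries, other transforms and priors, a replicate block and leaving libraries out. Some named items are not reported here.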

Additional observations from a re-analysis of the deposited data

Results flagged for a closer look

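In 86 named windows and the library medians over all selected windows, 348 groups of libraries were examined. A library far from the rest of its group was sought by Dixon's ratio at the 95% level, and 23 were found (6.61%). The nominal 1 in 20 is no reference here, because some windows were named for a wide spread and several lie in the same gene. Of the 23 values, 9 were in Sham-OVA replicate 7, which was high in each case. Its values were 50.6% in Ikzf1, 60.4%, 61.7% and 48.8% in 3 windows of Ubac2, 30.8% in Tbx3os1, 27.5% in Sec11c, 46.1% in Ncf4, 81.9% in Rad50 and 67.7% in Rtkn2. In each of these windows it was nearer to the Sham libraries than the other Sham-OVA libraries were.

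PM replicate 1 was low in 3 windows, at 56.8% in Rhoh, 41.5% in Runx1 and 51.5% in Cd200r1. PM replicate 4 was low in Tiam1 (72.3%) and Rtkn2 (68.1%). The remaining libraries were each found in a single window. Sham replicate 7 had 49.6% in Lcp1, Sham replicate 4 had 77.4% in Tiam1, and Sham replicate 2 had 43.3% in Gm28342. PM replicate 2 had 83.0% in Cd79b, Sham-OVA replicate 3 had 44.3% in Fnbp1, and Sham-OVA replicate 6 had 52.8% in Gm9762. PM-OVA replicate 3 had 68.6% in Ly86, PM-OVA replicate 7 had 72.2% in Tiam1, and PM-OVA replicate 8 had 62.6% in Mirt1. No cause was tested.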

How the results depend on the processing

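The number of selected windows was 599, and it was 1288 at a threshold of 8 points and 290 at 12 points. Group medians gave 610 windows, windows with at least 3 values per group 605, and leaving out PM-OVA replicates 7 and 8 gave 555. Leaving out 1 library at a time gave 542 (without Sham-OVA replicate 6) to 672 (without Sham-OVA replicate 7), and 483 of the 599 (80.6%) were in every one of these selections. Subtracting each library's shift over all windows (centring) gave 459 losing windows, all among the 599, and 824 gaining windows, so that losing windows were 35.8% of both, against 50.4% without centring. The shift behind this is the median OVA difference over all complete autosomal windows, -0.38 points in Sham and -0.997 points in PM. Named windows kept their direction under each alternative that was run for them.

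For each of the 3 maternal contrasts, 0 of the 599 windows had an adjusted p below 0.05 under every alternative, leaving out libraries included. Replicate numbers are shared between groups. The deviations of same-numbered libraries correlated at -0.04 to 0.0987, none over 0.1, and those of other libraries at -0.101 to 0.0899. This cannot show whether animals were paired or shared a litter. The numbers are those of the sample titles, which differ from the library names in some samples. The fit with the replicate block also called 0 windows. Without read coverage the counting error of a window is unknown, and the smallest differences between single libraries cannot be interpreted.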

Other observations

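The pseudogene Gm9762, on chromosome 3 from 78964044 to 78967079, had levels in 2 separate ranges within the control groups. In Sham, 5 libraries lay between 47.0% and 50.8%, and replicates 5 and 7 were at 74.1% and 67.8%. In PM, 5 libraries lay between 47.2% and 50.1%, and replicates 6 and 7 were at 74.0% and 76.5%. In Sham-OVA, replicate 6 was at 52.8% and the other 6 at 32.9% to 39.2%, and in PM-OVA the 8 libraries ranged from 32.9% to 46.4%. The control means of this window, 55.2% in Sham and 55.9% in PM, fell between these ranges.

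A single window of the X chromosome, out of 8152 with a value in all 29 libraries, also lost 10 points or more in both arms, with Sham replicate 1 and without it.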
